A study of Mus musculus with 8 samples.

Results

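The mitochondrial chaperones and proteases examined here are 10 genes: Hspd1, Hspe1, Hspa9, Dnaja3, Grpel1 and Trap1, whose products fold or import proteins, and Lonp1, Clpp, Clpx and Htra2, whose products degrade them. They were grouped by function, with earlier results of these data known. Of the 10, 9 are among the 16593 genes that the platform's annotation pairs with probes, Lonp1 being without one. The 9 genes have 13 probes, and 11 of these were detected on all 8 arrays and tested. The remaining pair, a second probe of Dnaja3 and one of Clpx, was detected on 1 array each and is given as values only. The hearts came from 4 transgenic mice with a doxycycline-inducible short hairpin RNA against Taz, a knockdown model of Barth syndrome, and from 4 wild-type littermates. Both groups were 2 months old, of C57BL/6J background, and received doxycycline in the food (625 mg/kg). The 8 hearts include none without doxycycline and none with another hairpin. Effects of the drug that differ between the groups, or of the hairpin itself, were therefore not tested. The labels name neither the promoter of the hairpin nor the cells that express it. Total RNA of each heart was hybridised to an Illumina bead array of its own, and a separate mouse is named for each.

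Proteins made in the cytosol enter the mitochondrial matrix unfolded, pulled in by the mitochondrial HSP70 (Hspa9, mortalin). This HSP70 is driven through its cycle by J proteins, Dnaja3 among them, and by the nucleotide exchange factor Grpel1. The chaperonin of Hspd1 (HSP60) with its lid Hspe1 (HSP10) then folds the imported proteins, while Trap1 is the HSP90 of the matrix. Lonp1 and the Clpx-Clpp complex are matrix proteases run by ATP, and Htra2 is a serine protease of the space between the membranes. In mammalian cells with misfolded matrix protein, genes of this group are known to be induced together with the transcription factors Ddit3 (CHOP), Atf4 and Atf5, a programme called the mitochondrial unfolded protein response. Tafazzin, the product of Taz, remodels cardiolipin, the lipid of the inner membrane in which the import and respiratory machinery sits.

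On the arrays 8935 to 10183 of 25697 probes were detected per heart, and normalized log2 intensities of hearts from the same group correlated at 0.980 to 0.990. The brighter Taz probe (ILMN_2978525) read 69.9, 68.1, 53.3 and 59.5 in knockdown hearts 1 to 4, against 539, 639, 477 and 516 in wild-type hearts 1 to 4, so the target of the hairpin was low in each knockdown heart. Heart muscle markers (Myh6, Myl2, Myl3, Tnni3 and Actc1) were detected in all 8 hearts, and Ryr2 in 2. Among 3 smooth muscle markers Acta2 was higher in knockdown hearts, with a log2 difference of 0.85 (limma adjusted p = 0.0125), while Myh11 stood at -0.33 and Tagln at -0.42. The summed intensity of the 3 was 15260 to 23220 in knockdown hearts and 7300 to 12950 in wild-type hearts. Acta2 alone made up nearly all of it, at 15030 to 22980 and 7135 to 12570, so the sum does not stand for the other markers. All 5 tested atrial markers had negative values (median -0.71); 4 had an unadjusted limma p under 0.05 and 0 passed after adjustment, with sums of 28160 to 40900 in knockdown hearts and 31160 to 66790 in wild-type hearts. All 4 leukocyte markers tested had negative values (median -0.27); Lyz2 fell by 0.48 (limma adjusted p = 0.0450), Lyz2 and Cd14 (-0.26), 2 of the 4, had an unadjusted p under 0.05 and groups that did not overlap. Their sums were 1745 to 2477 in knockdown hearts and 1802 to 2995 in wild-type hearts, and Ptprc and Cd3e were detected on no array. Of the fibroblast (4), endothelial (4) and erythroid (2) markers tested, 0 passed, and 1 fibroblast and 1 erythroid marker had an unadjusted p under 0.05. What part these cell types have in the values below was not tested, and in whole hearts fewer cells of a type and less RNA per cell cannot be told apart.

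The comparison asks whether the folding and degrading machinery of mitochondria differs at the RNA level when Taz is lowered. The mitochondrial HSP70 (Hspa9) and a J protein, Dnaja3, were higher in knockdown hearts, while the chaperonin, the HSP90 and the proteases did not pass. Dnaja3 missed the threshold in 8 of 20 alternative settings. Dnajc19, a J protein outside the members, was lower by its brightest probe (limma adjusted p = 0.0488) and missed the threshold in 15 of 20. Of 9 members tested by their brightest probe 2 rose, 0 fell and 7 did not pass. Counted by probe, 3 of 11 were higher, and these 3 alone had an unadjusted limma p under 0.05. Among all 6889 named genes tested, 3.22% were higher and 3.43% lower by the same rule, 6.65% in either direction. Among all tested probes 3.42% were higher, 3.16% lower and 6.58% either. Differences were fitted with limma over all 9397 tested probes, with Benjamini-Hochberg adjustment over them and a threshold of 0.05. The median log2 difference was 0.13 for the 9 members and -0.01 for all named genes.

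**Figure D1:**
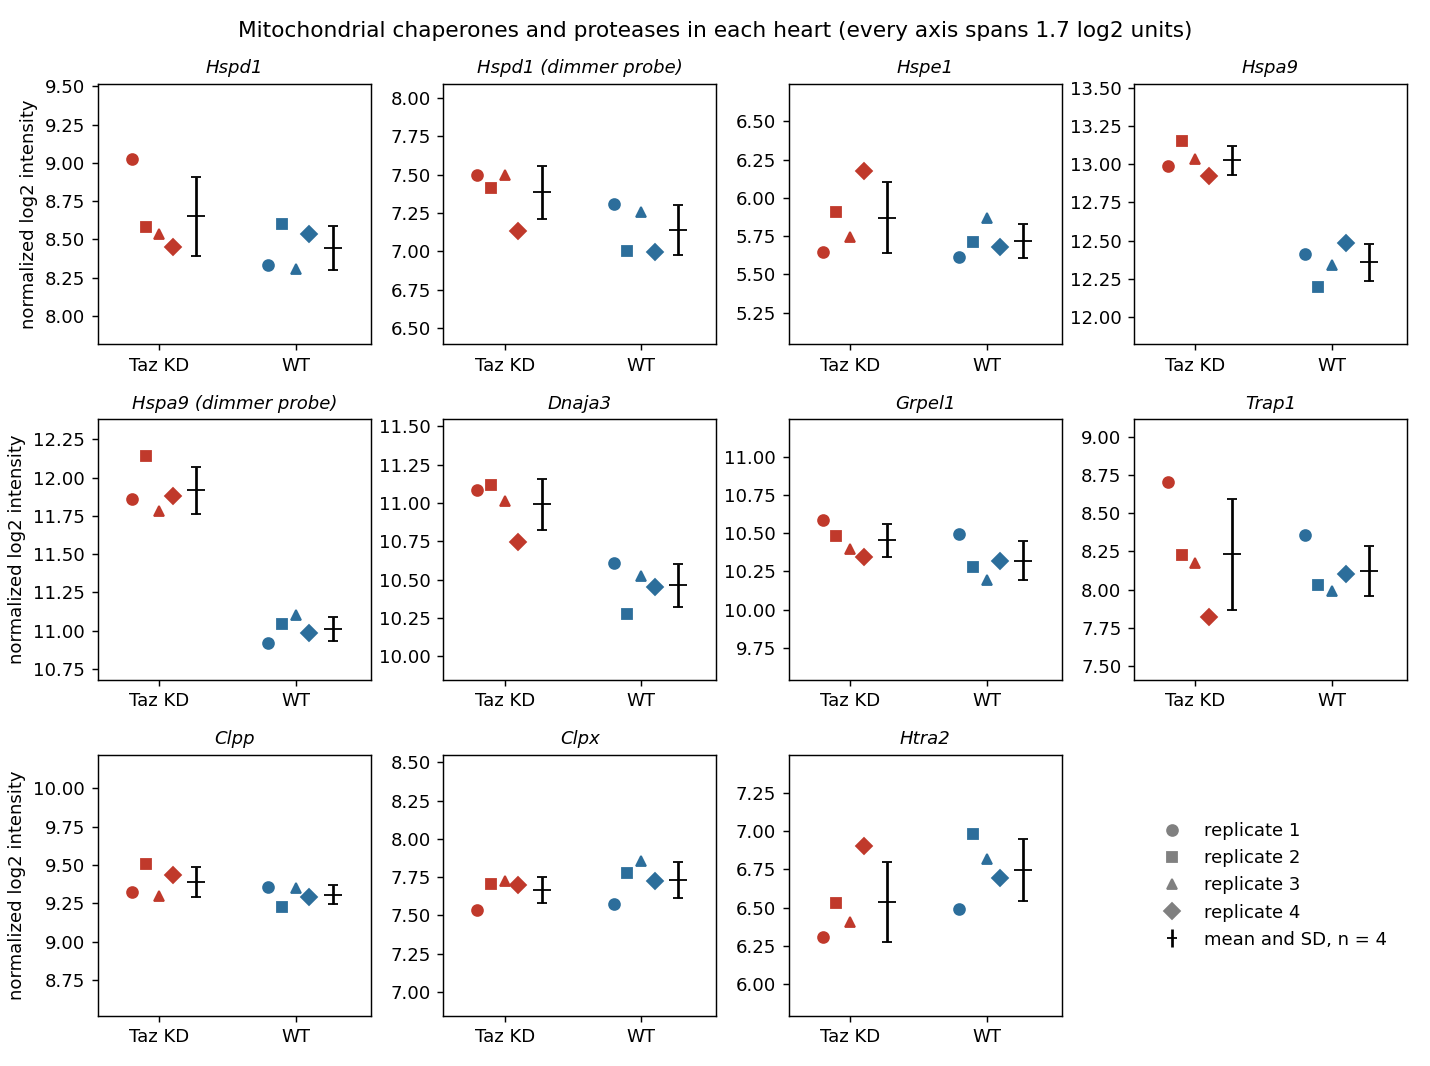
Normalized log2 intensity of the 11 tested probes in each heart, Taz knockdown (Taz KD, red) left of wild type (WT, blue), with 1 symbol per replicate number and bars for the mean and SD (n = 4). The groups are apart for both Hspa9 probes and for Dnaja3 and overlap for the other 8 probes.

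Hspa9 was the member with the largest difference. Its brighter probe (ILMN_2821196) read 9675, 9368, 7717 and 6932 in knockdown hearts 1 to 4, against 5594, 5027, 4346 and 5622 in wild-type hearts 1 to 4. The dimmer knockdown hearts, 3 and 4, thus still lay above the brightest wild-type heart. After normalization the level averaged 13.02 ± 0.0955 on the log2 scale in knockdown hearts and 12.36 ± 0.121 in wild-type hearts (SD, n = 4 each). Hspa9 rose 1.58-fold (95% interval 1.35 to 1.86), a log2 difference of 0.66 ± 0.105 (SE, limma adjusted p = 0.00373). The second probe (ILMN_1222803) read 4403, 4745, 3398 and 3348 in knockdown hearts 1 to 4, against 2021, 2224, 1809 and 2014 in wild-type hearts 1 to 4. By this probe the rise was 1.87-fold (1.58 to 2.21), or 0.91 ± 0.110 (SE, limma adjusted p = 0.000564). Both probes therefore gave the same direction with groups that did not overlap, and their intervals shared the range from 1.58 to 1.86. On both, all 4 knockdown hearts lay above all 4 wild-type hearts (exact two-sided permutation p = 0.0286, the smallest that 70 assignments of the hearts allow). By size of the log2 difference Hspa9 held place 118 of 6889 named genes.

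Dnaja3, whose product stimulates the ATPase of mitochondrial HSP70, also rose. Its detected probe (ILMN_2608238) read 2544, 2268, 1995 and 1457 in knockdown hearts 1 to 4, against 1603, 1314, 1199 and 1410 in wild-type hearts 1 to 4. Knockdown heart 4 lay below wild-type heart 1 in deposited intensity and above it after normalization, at 10.75 against 10.61 on the log2 scale. The fitted rise was 1.44-fold (95% interval 1.20 to 1.73), a log2 difference of 0.53 ± 0.120 (SE, limma adjusted p = 0.0246; exact permutation p = 0.0286). The value moved little when hearts were left out in turn, between 0.46 and 0.61, but it no longer passed without knockdown heart 1 (limma adjusted p = 0.0724), 2 (0.0761) or 3 (0.0692), or without wild-type heart 2 (0.0687) or 4 (0.0651), so that 1 of 9 members then remained, Hspa9. The other Dnaja3 probe (ILMN_1215738), at background, read 18.7, 1.67, -0.705 and 1.12 in knockdown hearts and 6.38, 8.23, 6.48 and -5.12 in wild-type hearts.

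The sequence before and at the start of Dnaja3 is shown because it is the called member whose window was searched, and no window of Hspa9 was used. It is RefSeq's window of 250 bases before to 50 after the gene start, on GRCm38.p6 at chr16:4683820-4684119, plus strand, with the letters of NRF1 elements in capitals.
Dnaja3: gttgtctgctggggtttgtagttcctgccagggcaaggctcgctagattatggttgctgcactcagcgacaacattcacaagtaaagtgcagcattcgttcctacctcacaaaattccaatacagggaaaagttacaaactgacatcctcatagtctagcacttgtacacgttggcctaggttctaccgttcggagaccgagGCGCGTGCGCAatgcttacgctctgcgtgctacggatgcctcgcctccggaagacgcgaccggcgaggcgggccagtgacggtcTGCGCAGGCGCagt
Nuclear respiratory factor 1 is known to activate many genes of mitochondrial proteins through such elements. The letters searched, on both strands, were TGCGCA, any base and GCGC, and the window holds a match on the minus strand that begins at base -48 from the gene start and a match on the plus strand that begins at base 37. Of 32851 windows of the same length from RefSeq, 2.44% hold a match. The motifs were chosen after the windows had been read, so this share does not tell how unusual the match is. None of the 9 windows of the 8 members searched holds the C/EBP-ATF response element TGATGNAA, at which ATF4 and CHOP bind with partners, and 3.97% of all windows do. At that share 9 windows are too few for an absence to be read. Only these letters were searched, Hspa9 and Htra2 were not among the members searched, and a window of Hspd1 shares 285 bases with that of Hspe1. Whether sites of this kind with other letters are present was not tested. A match describes the letters of the window and is not a measured site.

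Grpel1, which exchanges the nucleotide on mitochondrial HSP70, completes the HSP70 cycle with Hspa9 and Dnaja3. Its probe (ILMN_2945806) read 1800, 1467, 1292 and 1088 in knockdown hearts 1 to 4, against 1476, 1315, 953 and 1263 in wild-type hearts 1 to 4, and the groups overlapped. The log2 difference was 0.13 ± 0.107 (SE, limma adjusted p = 0.545), with an interval from -0.10 to 0.37, so a rise of up to 1.29-fold lies within it. Within each heart the log2 ratio of Hspa9 to Grpel1 was 2.40 to 2.67 in knockdown hearts and 1.92 to 2.17 in wild-type hearts, without overlap and with a mean difference of 0.53 ± 0.0901 (SE). The ratio of Dnaja3 to Grpel1 likewise did not overlap, at 0.406 to 0.634 in knockdown hearts and -0.002 to 0.322 in wild-type hearts on the log2 scale. Ratios of Hspa9 to Clpp, Clpx and Htra2, and of Dnaja3 to Clpp and Clpx, did not overlap either. Those of both genes to Hspd1, Hspe1 and Trap1 overlapped, as did Dnaja3 to Htra2. Each sets a called gene over a gene that did not pass, so these ratios add no separate support and are not particular to Grpel1. The ratio of Hspa9 to Dnaja3 was 1.91 to 2.18 in knockdown hearts and 1.81 to 2.03 in wild-type hearts and overlapped, with a mean difference of 0.14 ± 0.0767 (SE). These ratios are differences of normalized levels, so the background correction, offset and quantile step act on them too, and only their change between groups can be read, since the probes differ in brightness.

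The chaperonin pair did not pass. Hspd1 read 614, 375, 351 and 282 in knockdown hearts 1 to 4 by its brighter probe (ILMN_2639036), against 327, 394, 240 and 365 in wild-type hearts 1 to 4. In these intensities knockdown heart 1 stood highest of the 8 and knockdown heart 4 was below wild-type hearts 1, 2 and 4. The log2 difference was 0.21 ± 0.141 (SE, limma adjusted p = 0.458), with an interval from -0.10 to 0.51, and 0.25 ± 0.125 (adjusted p = 0.299) by the dimmer probe (ILMN_2713841). Without knockdown heart 1 the brighter probe gave 0.08 and the dimmer probe 0.21. Hspe1, the lid, is dim on these arrays, with 42.9, 44.7, 37.3 and 47.4 in knockdown hearts 1 to 4, against 35.8, 38.8, 34.6 and 37.0 in wild-type hearts 1 to 4. Its normalized levels overlapped and differed by 0.15 ± 0.129 (SE, limma adjusted p = 0.567). The offset used in normalization draws differences of such dim probes toward 0.

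The 2 chaperonin genes lie head to head on chromosome 1 and are read in opposite directions, and the stretch shown holds the start of Hspe1 and 1 of 2 starts that RefSeq's windows give for Hspd1. The Hspe1 window is chr1:55087898-55088197 on GRCm38.p6, plus strand, and shares 285 bases with a window of Hspd1 on the minus strand and 4 with the other Hspd1 window. Capitals mark a heat shock element and an ERR core element.
Hspe1: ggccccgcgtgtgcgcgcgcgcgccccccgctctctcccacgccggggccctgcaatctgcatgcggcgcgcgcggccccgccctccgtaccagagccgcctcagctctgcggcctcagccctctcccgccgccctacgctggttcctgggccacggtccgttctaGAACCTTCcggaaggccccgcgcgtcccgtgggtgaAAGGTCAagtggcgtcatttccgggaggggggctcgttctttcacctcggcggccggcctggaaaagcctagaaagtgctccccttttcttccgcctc
The heat shock element was searched as GAANNTTC, which heat shock factor 1 binds in repeats, and begins at base -84 from the Hspe1 start. It is in 7.86% of all windows and, among the 9 windows of the 8 members searched, in this shared stretch alone. Hspa9 and Htra2 were not searched. The ERR core AAGGTCA, the DNA core of the oestrogen-related receptors, begins at base -48 and is in 4.72% of all windows. Trap1 also holds it, together with the cyclic AMP response element TGACGTCA, which is in 1.79% of all windows. As these motifs too were chosen after the windows had been read, the shares do not tell how unusual the matches are.

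Trap1, the mitochondrial HSP90, had the widest spread of the members among knockdown hearts. Its probe (ILMN_2422333) read 486, 287, 271 and 177 in knockdown hearts 1 to 4, against 333, 258, 191 and 267 in wild-type hearts 1 to 4. The highest and the lowest of all 8 values were thus both in knockdown hearts, 1 and 4. The SD of the normalized log2 level was 0.361 in knockdown hearts and 0.164 in wild-type hearts (n = 4 each). The log2 difference was 0.11 ± 0.170 (SE, limma adjusted p = 0.780), and without knockdown heart 1 it was -0.05.

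None of the 3 protease genes measured passed, and 0 had an unadjusted limma p under 0.05. Clpp, the proteolytic chamber of the ClpXP protease, read 571 to 746 in knockdown hearts and 518 to 670 in wild-type hearts (ILMN_2982890), a log2 difference of 0.08 ± 0.0987 (SE, limma adjusted p = 0.698). Its interval from -0.13 to 0.30 was the narrowest of the 9 members and ends at a 1.23-fold rise. Clpx, the unfoldase that feeds Clpp, read 159 to 210.5 in knockdown hearts and 172 to 213.5 in wild-type hearts by its detected probe (ILMN_3154849), with a log2 difference of -0.07 ± 0.104 (SE, adjusted p = 0.778). The other Clpx probe (ILMN_2613869), at background, lay between -1.20 and 20.2 in knockdown hearts and between -13.6 and 19.2 in wild-type hearts. Htra2, known for its release into the cytosol during cell death, read 68.9 to 86.0 in knockdown hearts and 75.9 to 116 in wild-type hearts (ILMN_2688944), a log2 difference of -0.21 ± 0.151 (SE, limma adjusted p = 0.484). Lonp1, the main soluble protease of the matrix, has no value here.

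**Figure D2:**
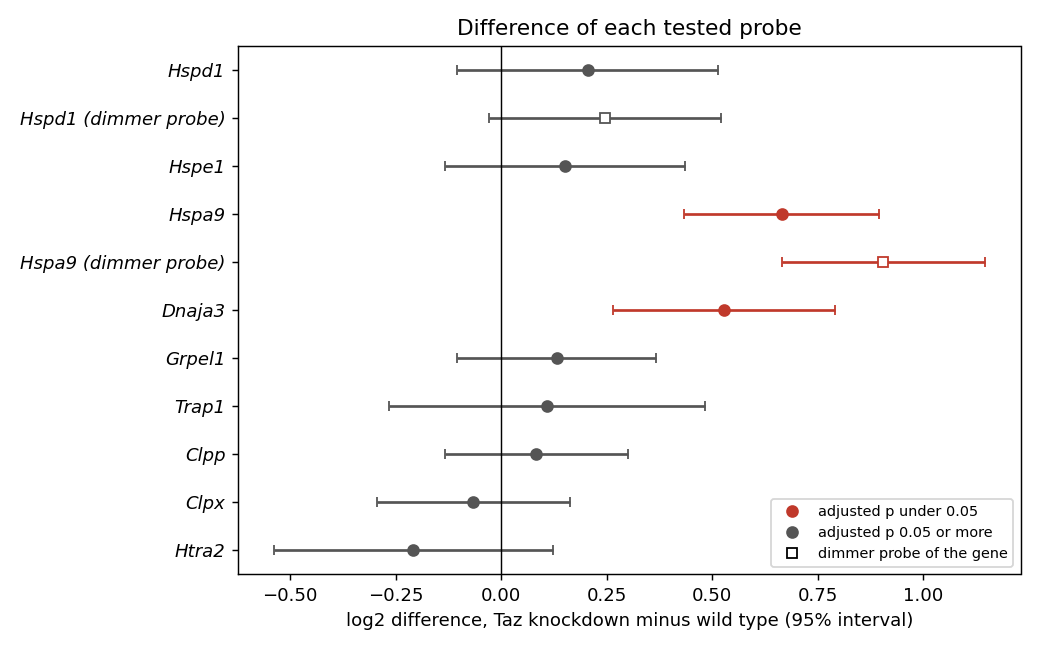
Log2 difference of each tested probe, Taz knockdown minus wild type, with its 95% interval from limma, red where the adjusted p was under 0.05, and open squares for the dimmer probe of a gene. The intervals of both Hspa9 probes and of Dnaja3 lie above 0 and those of the other 8 probes include 0.

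Over the 7 members that did not pass, limma adjusted p ranged from 0.458 to 0.780, and their intervals ran from 0.688-fold to 1.43-fold. For each gene, changes within its own interval, which is narrower than that range, are neither shown nor excluded with 4 hearts per group. Only Hspa9 and Dnaja3 had groups that did not overlap, 2 of 9 members, where 15.3% of all named genes tested did not overlap in either direction 6.91% were higher and 8.36% lower without overlap. By probe the 3 of 11 stand beside 6.98% of all tested probes higher, 7.65% lower and 14.6% either without overlap. Of the 7, 5 had positive and 2 negative values, and their median was 0.11.

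Within groups the members did not vary as a block. Taking the deviation of each heart from the mean of its group, 18 of 36 pairs of members correlated positively and 18 negatively over the 8 hearts. Grpel1 and Trap1 varied together (Pearson r = 0.881), as did Hspe1 and Htra2 (0.850) and Hspa9 and Dnaja3 (0.712), while Grpel1 and Clpx (-0.926) and Dnaja3 and Htra2 (-0.874) varied in opposite directions. These correlations describe 8 hearts that share their arrays and scaling, and carry no test. Knockdown hearts 1 and 4 marked the ends of much of this spread. Heart 1 stood 0.47 above its group mean for Trap1 and 0.38 for Hspd1 and 0.22 below it for Hspe1, whereas heart 4 stood 0.41 and 0.20 below for Trap1 and Hspd1 and 0.31 above for Hspe1. Heart 1 also had the most detected probes of the knockdown group, 10183, and heart 4 the fewest, 9027. In the wild-type group heart 1 stood highest for Trap1, Grpel1 and Dnaja3 and lowest for Hspe1, Clpx and Htra2.

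**Figure D3:**
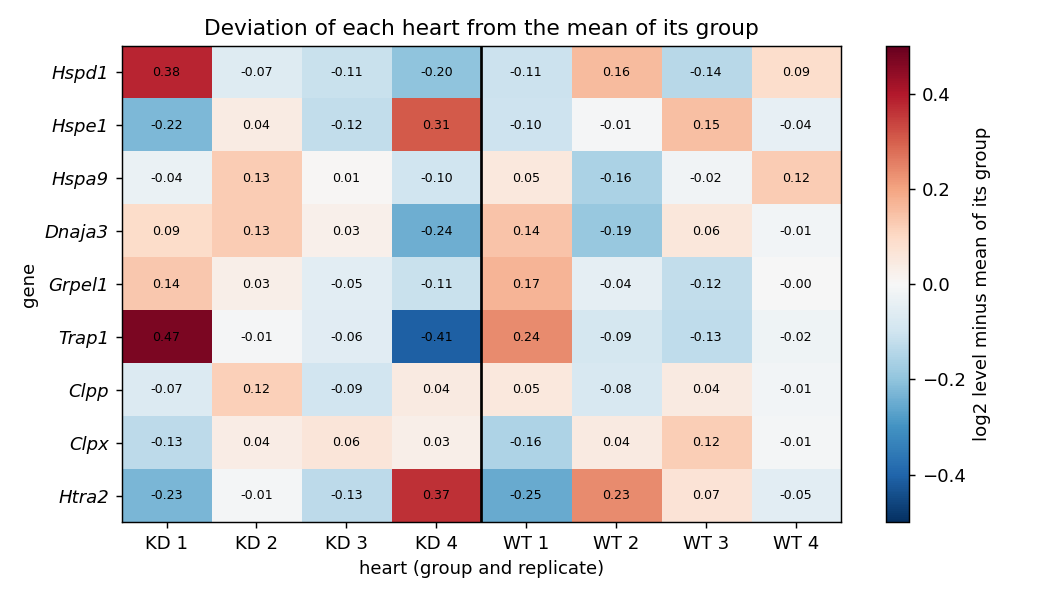
Normalized log2 level of the 9 members (brightest probe) in each heart minus the mean of its own group, with knockdown hearts (KD) left of wild-type hearts (WT) and red for higher and blue for lower. Trap1 runs from 0.47 in knockdown heart 1 to -0.41 in knockdown heart 4, and Hspa9 stays within 0.16 of its group means.

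The genes whose levels followed Hspa9 most closely over the 8 hearts were Uchl1 (Pearson r = 0.992), a ubiquitin hydrolase, Bola2 (0.988), Ccnd2 (0.987), a cyclin of the cell cycle, Rpl37 (0.986), a protein of the cytosolic ribosome, and Slc25a5 (0.985), an exchanger of ADP and ATP across the inner membrane. All 5 were higher in knockdown hearts, by 0.44 for Rpl37 to 1.596 for Ccnd2 on the log2 scale (limma adjusted p of at most 0.0232). For Dnaja3 they were Rpl36a (0.973), Rps12 (0.970), Bhlhb9 (0.968), Rpl12 (0.960) and Nfe2l1 (0.958), of which Rpl36a, Rps12 and Rpl12 encode ribosomal proteins. Rps12 did not pass (0.39, limma adjusted p = 0.0704). Correlations over hearts of both groups mostly follow the difference between groups.

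Regulators named in work on the mitochondrial unfolded protein response were examined beside the members. Of 7 tested, 3 rose, 0 fell and 4 did not pass, with a median log2 difference of 0.42. Atf5, which in mammalian cells takes the place of the worm regulator ATFS-1, read 1328, 1069, 971 and 680 in knockdown hearts 1 to 4, against 147, 86.8, 69.9 and 82.0 in wild-type hearts 1 to 4. Ddit3, the gene of CHOP, read 1137, 1574, 859 and 1072 in knockdown hearts 1 to 4, against 391, 431, 284 and 410 in wild-type hearts 1 to 4, and Atf4 rose as well. The groups were far apart for these regulators, with log2 differences of 3.18 ± 0.163 for Atf5, 1.51 ± 0.164 for Ddit3 and 1.69 ± 0.141 for Atf4 (SE, limma adjusted p of at most 0.000245). Cebpb (0.42, limma adjusted p = 0.191), Jun (-0.08), Ubl5 (-0.17) and Satb1 (-0.13) did not pass.

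Among other mitochondrial chaperones, co-chaperones and assembly factors the genes that passed were lower. Of 9 tested among 14 listed genes, 0 rose, 2 fell and 7 did not pass, with a median of -0.03, and the same 2 were those with an unadjusted limma p under 0.05. Dnajc28, a J protein, read 24.2 to 42.2 in knockdown hearts and 49.8 to 66.3 in wild-type hearts and fell by 0.68 ± 0.121 on the log2 scale (SE, limma adjusted p = 0.00721). Dnajc19, a J protein of the import motor, fell by 0.41 ± 0.109 (SE, limma adjusted p = 0.0488) by its brightest probe, stood at 0.03 by another, and did not pass in 15 of 20 other settings, among them each omission of a single heart (adjusted p from 0.0560 to 0.131). Timm44 and Pam16, also parts of the import motor, stood at -0.14 and 0.24, and Phb2, a ring protein of the inner membrane, at 0.24. None of them passed.

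Among the other proteases and processing peptidases, 0 of 9 tested of 17 listed genes passed (median -0.11), and 1 had an unadjusted p under 0.05. By brightest probe the lowest limma adjusted p was that of Spg7, a subunit of the inner membrane AAA protease (-0.23, adjusted p = 0.210). Next was Oma1, a stress-activated protease of the inner membrane (-0.37, adjusted p = 0.253). Afg3l1 stood at 0.17 by its brightest probe (limma adjusted p = 0.422) and at 0.23 and 0.08 by dimmer ones. A further Afg3l1 probe stood at 0.245 (limma adjusted p = 0.246), with groups that did not overlap. Parl, a rhomboid protease of the inner membrane, stood at -0.01. The list also holds Lonp2, whose product works in peroxisomes and which stood at -0.07.

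Chaperones of other compartments were compared to see where else folding genes differed. Of 12 cytosolic chaperones tested among 24 listed genes, 1 rose and 11 did not pass, with a median of 0.12. Of the 12, 2 had an unadjusted limma p under 0.05. Cct4, a subunit of the cytosolic chaperonin, read 619 to 967 in knockdown hearts and 468 to 556 in wild-type hearts and rose by 0.61 ± 0.109 on the log2 scale (SE, limma adjusted p = 0.00721), losing the call against wild-type hearts 3 and 4 alone (0.0603). Cct3, another subunit, stood at 0.44 by its brightest probe (limma adjusted p = 0.0813) and at 0.15 by its other (0.455). Hspa8, the constitutive HSP70 of the cytosol, stood at 0.23 (limma adjusted p = 0.440) and Dnajb1, an HSF1 target, at 0.26 (0.291). Of 7 endoplasmic reticulum chaperones tested among 13 listed genes, 0 passed (median -0.02). An unadjusted limma p under 0.05 was seen for 2, Hsp90b1 at -0.34 and Pdia4 at -0.35. Hspa5, Hyou1, Hspa1a and Hsp90aa1 were among the listed genes detected on too few arrays to be tested.

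Nuclear genes used as a gauge of mitochondrial mass leaned to lower values. Of 10 tested, 0 rose, 1 fell and 9 did not pass, 9 of the 10 values were negative, 1 had an unadjusted limma p under 0.05, and the median was -0.12. Tfam, which packages mitochondrial DNA, fell by 0.87 ± 0.182 on the log2 scale (SE, limma adjusted p = 0.0163) by its brightest probe, which was detected in 3 of 4 knockdown hearts, and stood at 0.16 by its other probe (adjusted p = 0.669). The call was lost with the authors' quantile-normalized table (limma adjusted p = 0.120), with the mean of both probes (0.193) and against wild-type hearts 3 and 4 alone (0.0914). Cs (-0.10), Vdac1 (-0.01) and Cox4i1 (0.11) did not pass.

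**Figure D4:**
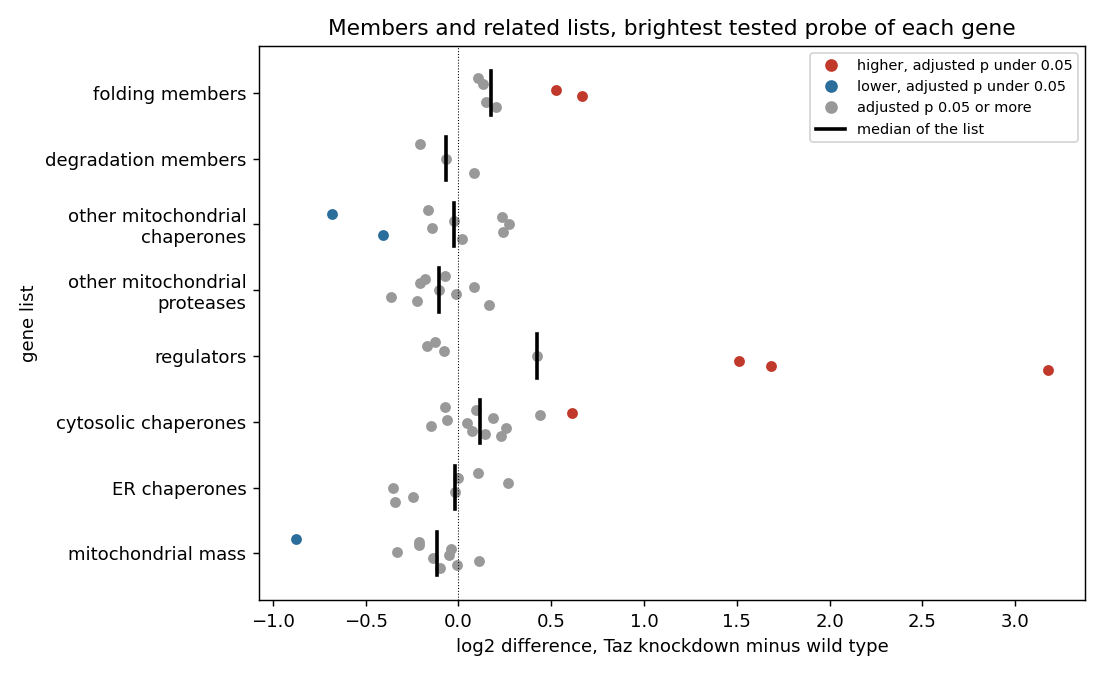
Log2 difference, Taz knockdown minus wild type, of the brightest tested probe of each gene, for folding and degradation members and for the related lists, red for higher and blue for lower genes with adjusted p under 0.05, and a black bar at the median of each list. The 2 called folding members lie at 0.53 and 0.66, and the 3 called regulators at 1.51 to 3.18.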

How the data were processed

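Group and number of each heart were read from its description. The deposited table, called non-normalized per the file headers, holds 1 intensity per probe and array on a linear scale, with 28.2% to 31.5% of an array's values below 0, and a detection p-value deposited beside each. The sources used here do not name the software. The authors also deposited intensities that, judged from the values, are the same ones after quantile normalization (rank correlation 1 with each array, upper quartile 46.8 throughout), and was used as an alternative.

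The neqc function (limma 3.58.1, R 4.3.3) corrected the background by normexp using the detection p-values, added an offset of 16, equalised quantiles and took log2. Probes with detection p under 0.05 on at least 4 of 8 arrays were tested with lmFit and eBayes, two-sided, with Benjamini-Hochberg adjustment. Probes were named through the platform annotation updated by the RefSeq gene table (23962 of 23978 named probes). Where 1 value per gene was needed, the brightest tested probe stood for it. Named genes are all members, Taz, up to 4 called genes per related list, the 5 genes most like each called member, and others named after their values were seen. Members and lists were chosen with earlier results of these data known, and the motifs after the windows had been read. Whether probes of gene copies cross-hybridise was not checked. Same-numbered hearts deviated together at 0.165, 0.0053, -0.0932 and -0.00531, so numbers were not taken as pairs. The 4 arrays per group limit precision.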

Additional observations from a re-analysis of the deposited data

Results flagged for a closer look

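Of 26 groups of 4 hearts tested, 1 held a heart that stood apart, where chance gives about 1 in 20. Clpx (ILMN_3154849) was at 7.54 on the normalized log2 scale in knockdown heart 1, below the other 3 knockdown hearts, and the gap to the nearest of them made up 0.841 of the range of the group.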

How the results depend on the processing

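Over 20 alternatives each, Hspa9 kept its rise past the threshold by both probes (0.61 to 0.79 and 0.79 to 0.95 on the log2 scale), no member was lower in any, and no other member besides Dnaja3 passed. Dnaja3 kept its direction but missed the threshold in 8 alternatives, which leaves 1 member higher: with the authors' quantile-normalized table (0.53, limma adjusted p = 0.0538), with the replicate block (0.53, 0.0587), against wild-type hearts 3 and 4 alone (0.51, 0.0915) and in 5 of the omissions of single hearts (values over all omissions 0.46 to 0.61). Leaving out single hearts gave 1 to 2 members higher, 0 lower, and, for all probes, 198 to 262 higher and 184 to 256 lower, against 321 and 297 with all hearts; the lower count moved by over 1.5 times without knockdown heart 1 (184), 2 (194) or 3 (185) or wild-type heart 4 (189), and the higher count without knockdown heart 2 (198). Trap1 turned to -0.048 without knockdown heart 1 (-0.048 to 0.244 over the omissions), passing in neither. Probe counts moved by more than 1.5 times to 208 higher and 189 lower with the authors' table, 451 lower with offset 50, 471 lower with a variance prior that follows intensity, 184 lower with the replicate block (215 higher), 204 and 161 against wild-type hearts 3 and 4, and 193 and 167 without the array with fewest detected probes of each group. Those last 2 settings and the omissions use fewer hearts, and otherwise the cause was not tested. By the labels, the mice of wild-type hearts 3 and 4 are numbered directly before the knockdown mice. Wild-type hearts 1 and 2 are from mice numbered apart, and the labels do not say what the numbers mean. Of single genes named outside the members, 19 values changed side of the threshold, 15 of them for Dnajc19. Dim probes such as Hspe1 and Htra2 are limited by signal over background.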
